A study of Mus musculus with 18 samples.

Results

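Keratins are the intermediate filament proteins of epithelial cells, and their genes were followed here in mouse colon through every gene whose symbol is Krt with a number and at most 1 further letter. The rule picked 45 of the 35405 genes measured, of which 22 encode type I (acidic) and 23 type II (basic) keratins. As deposited, 21 of them lie on chromosome 11 and 24 on chromosome 15, and Krt18 is the only type I gene on chromosome 15. In the table Krt7 (ENSMUSG00000023039) spans chromosome 15 from 101308924 to 101328194, Krt8 (ENSMUSG00000049382) from 101905133 to 101912917, Krt18 (ENSMUSG00000023043) from 101936615 to 101940462 and Krt90 (ENSMUSG00000048699) from 101460791 to 101471385. Krt14 (ENSMUSG00000045545) spans chromosome 11 from 100093988 to 100098374, Krt13 (ENSMUSG00000044041) from 100008153 to 100012392, Krt19 (ENSMUSG00000020911) from 100031636 to 100036946 and Krt20 (ENSMUSG00000035775) from 99319229 to 99328976, in a build that the sources used here do not name. The simple-epithelium keratins Krt8, Krt18, Krt19 and Krt20 are described beside those of stratified squamous epithelium, skin and hair.

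A keratin filament is built from pairs of a type I and a type II chain, so an epithelial cell makes at least 1 of each kind. Krt8, Krt18, Krt19 and Krt20 are the keratins of the single-layered lining of the gut, with Krt20 mostly in its mature surface cells. Krt5 and Krt14 form the pair of the basal layer of stratified epithelium, Krt4 and Krt13 the pair of the upper layers of moist squamous epithelium such as oesophagus, and Krt6, Krt16 and Krt17 are made by wounded epidermis.

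Polyadenylated RNA from colon tissue was sequenced in 18 libraries. They fall into 3 groups of 6 called IBC (isobavachalcone, a plant chalcone), TNBS (trinitrobenzene sulfonic acid, a hapten given to cause colitis) and vector, which the deposited table calls control. The series title places the compound in TNBS colitis, but nothing in the labels tells if IBC animals received TNBS as well, and they give no strain, age, sex, dose or time. They do not say either whether libraries come from separate animals, so p-values measure the spread between libraries, which may be technical.

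Library totals were 55.7 to 78.9 in units of 1e6 counts. Hoxb13, a homeobox gene of the hindmost gut, was between 123 and 598 CPM (counts per 1e6 counts of the scaled total) in 12 libraries and at most 1.44 CPM in the other 6, which are IBC 2 and 5, TNBS 2 and 3, and vector 3 and 4. Each group therefore holds 4 libraries high and 2 low in Hoxb13, and fold changes within these sets are given beside or after the pooled ones. The high set was not uniform in Hoxd13, another Hox gene. Hoxd13 was 76.5 to 188 CPM in TNBS 1 and 5, IBC 3 and 6, and vector 1 and 6. In the rest of the 12 it was 1.83 to 5.14 CPM, and no fit took it into account. The low set was not uniform either. Hoxa13 was 37.2 CPM in vector 4 and 0.577 to 4.48 CPM in the other low libraries, against 36.1 to 58 CPM in the high set. Hoxb6 was 15.7 CPM in vector 4 and 48 to 98.3 CPM in the other low libraries. Vector 3 and 4 are the only vector libraries behind the fold changes of the low set. Vector 3 stood apart with 18% of its counts in mitochondrial genes, against 4.48% to 9.2% elsewhere.

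Levels are FPKM (fragments scaled by transcript length and by library total), which allow genes of different length to be compared. Of the 45 keratins, 5 were at 1 FPKM or more in all 18 libraries (Krt7, Krt8, Krt18, Krt19 and Krt20), 15 reached 1 FPKM in at least 1 library and 30 never did. The highest value among those 30 was 0.784 FPKM, for Krt6a in TNBS 1. By class, 6 of 6 simple-epithelium keratins reached 1 FPKM, as did 1 of 3 basal-layer keratins (Krt14), 1 of 2 of moist squamous epithelium (Krt13), 1 of 4 of cornified skin (Krt10, at most 1.09 FPKM), 1 of 4 of injury and appendage ducts (Krt17), 3 of 11 of the hair shaft (Krt36, Krt84 and Krt87), 2 of 9 others (Krt12 and Krt90) and 0 of 6 of the hair follicle sheath.

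The label squamous epithelium was checked against genes that mark such tissue, and they did not go together. Trp63, the transcription factor of basal squamous cells, was at most 0.0155 FPKM in all 18 libraries, and Krt5 was at most 0.260 FPKM. Krt1, made above the basal layer of skin, was at most 0.0590 FPKM, and Krtdap, a gene of the same layer, was listed at 0 in 14 libraries and at 0.0724 to 0.345 FPKM in the other 4. Of 17 squamous epithelium genes other than keratins, 8 stayed below 1 FPKM in all 18 libraries, 5 reached it in some and 4 in all, namely Pkp1, Sfn, Perp and Serpinb5. Sfn, an inhibitor of the cell cycle in epithelia, was 40.3 to 140 FPKM, and Serpinb5, a serpin of epithelial cells, was 10.9 to 31.8 FPKM, each with vector libraries inside that range. Tgm3, a transglutaminase of cornifying cells, reached 132 FPKM in vector 1 and was at most 0.743 FPKM in the 6 libraries low in Hoxb13. Trim29 was 2.29 FPKM in TNBS 1 and at most 0.526 FPKM in the others. The summed FPKM of the 17 genes was 171 to 304 in IBC, 170 to 350 in TNBS and 144 to 304 in vector. In TNBS 1 Sfn was 140 and Perp 109 FPKM, and in vector 1 Tgm3 was 132 FPKM. The sum thus follows a few high genes and says little about the 8 that stayed low. Since the defining genes Trp63 and Krt5 were near 0 and other markers were not, no library is called squamous, and the keratins go by their own names.

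**Figure D1:**
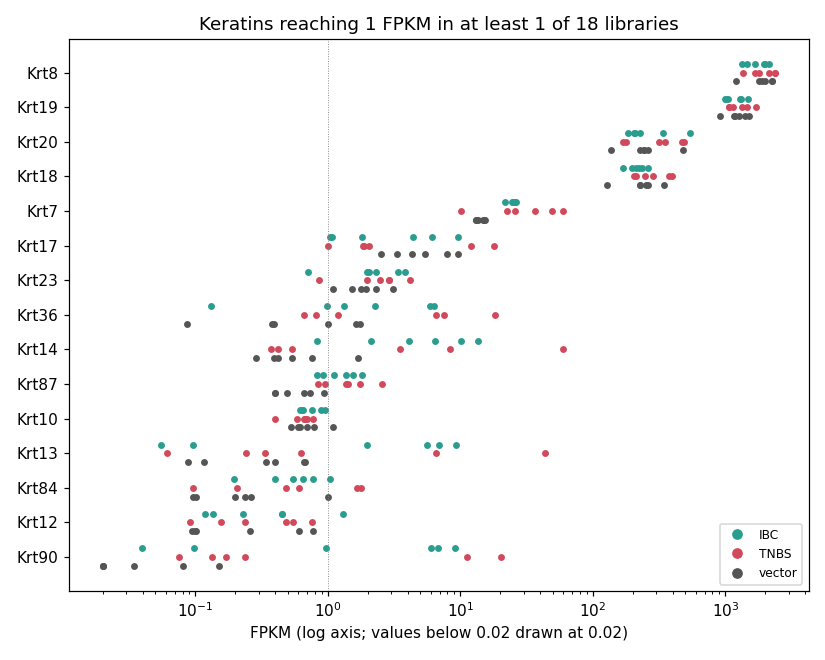
Levels of the 15 keratins that reached 1 FPKM in at least 1 library, in order of their median, on a log axis in FPKM. Each point is a library, in the row order IBC, TNBS and vector. Krt8, Krt19, Krt20, Krt18 and Krt7 stay to the right of 1 FPKM in all 18 libraries, while Krt36, Krt14, Krt13 and Krt90 have libraries on both sides of it.

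Windows around RefSeq start sites are shown for 4 keratins on which the results turn. They belong to Krt20, the keratin of mature surface cells, Krt7, and Krt14 and Krt13, known from stratified epithelium. Each runs from 250 bases before to 50 bases after the start site in RefSeq on GRCm38.p6, 5′ to 3′ on the gene's own strand, and capitals mark a match on either strand to the motif TATAAA (the core promoter box), to the AP-1 motif TGANTCA or to the Sp1-type motif GGGCGG. Krt20 lies on chr11:99438104-99438403, Krt14 on chr11:100205981-100206280 and Krt13 on chr11:100121517-100121816, all on the minus strand, and Krt7 on chr15:101412153-101412452 on the plus strand. Deposited gene ends and these start sites lie nearly the same distance apart for Krt20 and Krt13, but less far apart for Krt14. The Krt14 window therefore appears to lie inside the gene and not at its 5′ end, so it may not be the promoter. On the plus strand of chromosome 15, the Krt7 start site lies farther from its deposited gene start than that of Krt18 does. The Krt7 window therefore appears to lie inside the deposited gene as well, and may not be at the 5′ end of the gene counted.
Krt20: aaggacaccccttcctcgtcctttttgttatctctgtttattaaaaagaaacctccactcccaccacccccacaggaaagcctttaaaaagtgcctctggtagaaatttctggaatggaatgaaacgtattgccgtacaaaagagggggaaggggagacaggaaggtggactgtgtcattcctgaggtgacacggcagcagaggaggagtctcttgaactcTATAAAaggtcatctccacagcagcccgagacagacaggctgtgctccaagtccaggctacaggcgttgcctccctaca
Krt7: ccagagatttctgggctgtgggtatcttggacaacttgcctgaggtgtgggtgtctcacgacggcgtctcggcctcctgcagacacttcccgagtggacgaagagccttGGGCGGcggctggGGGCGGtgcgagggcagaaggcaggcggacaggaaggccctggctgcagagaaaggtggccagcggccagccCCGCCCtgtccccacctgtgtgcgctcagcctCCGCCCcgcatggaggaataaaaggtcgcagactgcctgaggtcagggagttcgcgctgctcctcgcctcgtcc
Krt14: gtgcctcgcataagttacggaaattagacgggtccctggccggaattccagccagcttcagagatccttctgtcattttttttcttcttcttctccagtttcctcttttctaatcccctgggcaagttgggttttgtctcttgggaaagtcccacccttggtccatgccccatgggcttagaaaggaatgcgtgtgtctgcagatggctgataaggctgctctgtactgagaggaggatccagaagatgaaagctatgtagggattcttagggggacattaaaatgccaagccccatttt
Krt13: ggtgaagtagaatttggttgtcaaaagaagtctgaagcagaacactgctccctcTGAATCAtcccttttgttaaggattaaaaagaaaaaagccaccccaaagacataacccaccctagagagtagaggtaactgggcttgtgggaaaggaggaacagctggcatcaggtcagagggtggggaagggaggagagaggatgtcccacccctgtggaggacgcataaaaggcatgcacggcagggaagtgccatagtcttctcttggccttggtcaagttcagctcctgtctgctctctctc

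Of the 45 keratins, 29 matched the RefSeq table, with 30 start sites. TATAAA was found in 14 of these 30 windows, Krt20 and Krt8 among them, and in 13.6% of all 32851 windows of that length. Counted from the start site, its first base lay at -29 in Krt20 but at -3 and -1 in Krt8. Over the keratin windows this place ran from -206 in Krt84 to 19 in Krt42. TGANTCA was found in 2 of 30, both of them start sites of Krt13, and in 7.81% of all windows. GGGCGG was found in 2 of 30, Krt7 with 4 matches and Krt75, and in 35.7% of all windows. The 3 motifs do not overlap each other in the windows printed, and a match is a description of the letters only.

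The 4 keratins Krt8, Krt18, Krt19 and Krt20 made up 98.4 ± 0.538% of the summed keratin FPKM in IBC, 98.1 ± 1.31% in TNBS and 99.2 ± 0.105% in vector (SD, n = 6 each). The lowest share of any library was 95.7%, in TNBS 1, and the highest 99.6%, in TNBS 6. These 4 genes together took 0.525% to 0.968% of all counts of a library. The summed FPKM of type II keratins was 0.941 to 1.21 times that of type I keratins, with a mean of 1.05 ± 0.0908 (SD, n = 18), so the kinds that pair in a filament were present in nearly equal sums.

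Krt8, the type II keratin of simple epithelium, had 1453, 2010, 1952, 1329, 2143 and 1682 FPKM in IBC 1 to 6, 2367, 1799, 2140, 1369, 1662 and 2366 FPKM in TNBS 1 to 6, and 2255, 1783, 1212, 1904, 2004 and 2264 FPKM in vector 1 to 6. It was the highest keratin in each library, and its 3 groups overlapped almost entirely. Its log2 fold change was 0.06 ± 0.20 for TNBS against vector, -0.16 ± 0.20 for IBC against vector and -0.22 ± 0.20 for IBC against TNBS (SE; adjusted p = 0.881, 0.889 and 0.925 with edgeR). A processed copy, Krt8-ps, shares 26.9% of the 50-base windows of Krt8 and held 0.201% to 0.334% as many counts.

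Krt19, a type I keratin that pairs with Krt8, had 999, 1294, 1319, 1010, 1484 and 1056 FPKM in IBC 1 to 6, 1691, 1333, 1138, 1061, 1070 and 1464 FPKM in TNBS 1 to 6, and 1396, 1173, 913, 1177, 1259 and 1507 FPKM in vector 1 to 6. It stood below Krt8 in all 18 libraries, and its groups overlapped. Fold changes on the log2 scale were 0.08 ± 0.17 for TNBS against vector, -0.11 ± 0.17 for IBC against vector and -0.19 ± 0.17 for IBC against TNBS (SE; edgeR adjusted p = 0.818, 0.924 and 0.925).

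Krt18, the other type I partner of Krt8, had 211, 236, 199, 225, 261 and 170 FPKM in IBC 1 to 6, 374, 248, 395, 210, 203 and 283 FPKM in TNBS 1 to 6, and 228, 252, 127, 259, 346 and 228 FPKM in vector 1 to 6. TNBS 1 and 3 were the highest libraries and vector 3 the lowest, and all 6 IBC libraries lay below the TNBS median of 266 FPKM. In CPM, 1 of 6 IBC libraries lay above the TNBS median. On the log2 scale Krt18 differed by 0.28 ± 0.21 for TNBS against vector, -0.19 ± 0.21 for IBC against vector and -0.47 ± 0.21 for IBC against TNBS (SE; edgeR adjusted p = 0.478, 0.867 and 0.925). Krt18 has the smallest p of the keratins between IBC and TNBS, and that p does not pass over all genes.

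Krt20 had 205, 340, 227, 183, 538 and 208 FPKM in IBC 1 to 6, 317, 349, 490, 169, 178 and 472 FPKM in TNBS 1 to 6, and 263, 227, 242, 476, 245 and 137 FPKM in vector 1 to 6. IBC 5, TNBS 3, TNBS 6 and vector 4 were high, and each group spanned more than 2-fold. Krt20 and Krt18 are neighbours in the order of levels that do not differ beyond this spread. The log2 fold change of Krt20 was 0.32 ± 0.36 for TNBS against vector, 0.08 ± 0.36 for IBC against vector and -0.24 ± 0.36 for IBC against TNBS (SE; edgeR adjusted p = 0.632, 0.976 and 0.948). Its share of the summed FPKM of the 4 simple keratins ran from 3.31% in vector 6 to 12.5% in vector 4.

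Within the Hoxb13 sets the log2 fold changes of the 4 simple keratins were at most 0.72 in size and some differed in sign. For TNBS against vector in the libraries high in Hoxb13 alone they were -0.04 for Krt8, 0.04 for Krt19, 0.06 for Krt18 and 0.41 for Krt20, and in those low in it 0.31, 0.20, 0.72 and 0.21 in the same order of genes. For IBC against vector they were -0.48, -0.39, -0.49 and -0.19 in the high set, and 0.44, 0.43, 0.41 and 0.34 in the low set. The values of IBC against TNBS were -0.44, -0.43, -0.56 and -0.60 in the high set, and 0.13, 0.23, -0.31 and 0.13 in the low set. The low set has 2 libraries a group, and the difference between the sets was not tested.

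Krt23, a low type I keratin of glandular epithelium, was 0.704 to 3.84 FPKM in IBC, 0.852 to 4.14 FPKM in TNBS and 1.09 to 3.10 FPKM in vector, with overlapping groups.

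**Figure D2:**
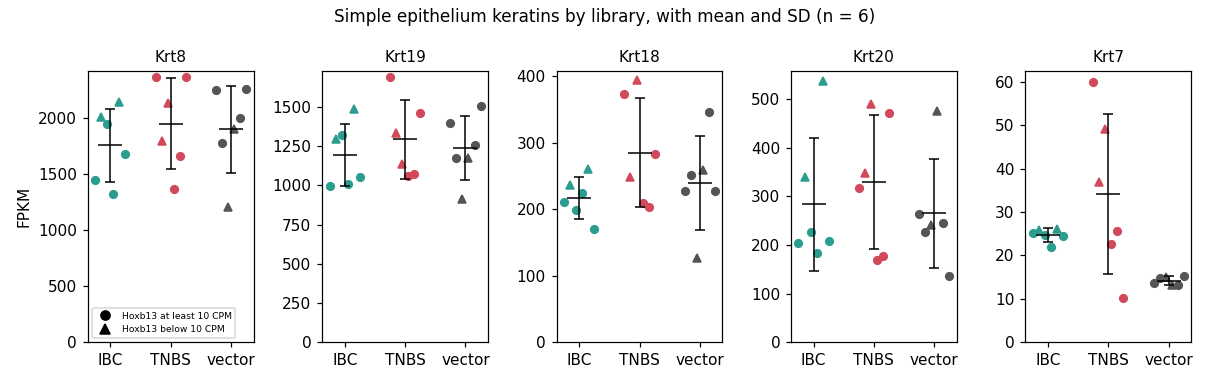
FPKM of Krt8, Krt19, Krt18, Krt20 and Krt7 by library in IBC, TNBS and vector, on linear axes from 0, with the mean and SD of 6 libraries. Circles are libraries high and triangles libraries low in Hoxb13. The groups overlap for the first 4 genes, while all 6 IBC libraries lie above all 6 vector libraries for Krt7.

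Epcam, an adhesion molecule of the same epithelial cells, was 359 to 753 FPKM, and its log2 fold change for TNBS against vector was 0.24 ± 0.15 (SE; edgeR adjusted p = 0.395). The ratio of Krt8 to Epcam FPKM within a library was 2.62 ± 0.329 in IBC (2.05 to 2.92), 3.04 ± 0.631 in TNBS (2.32 to 4.01) and 3.40 ± 0.228 in vector (3.07 to 3.74; SD, n = 6 each). These ratios were formed after the values had been seen and were not tested. Of 14 colon epithelium markers, 0 passed edgeR's adjusted test in any comparison, and at an unadjusted p under 0.05 there were 0 for TNBS against vector, 1 for IBC against vector (Lgr5, higher) and 0 for IBC against TNBS. In the same order, 4, 0 and 0 of all 20855 genes passed the adjusted test. At the unadjusted level 2177, 1021 and 356 genes were higher and 1526, 757 and 464 lower. The median log2 fold change of the 14 markers was -0.02 (TNBS against vector), -0.01 (IBC against vector) and 0.05 (IBC against TNBS). In tissue RNA, fewer cells of a type and less RNA per cell cannot be told apart.

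TNBS libraries were set against vector libraries to see how keratin levels stand in the colitis model. Of the 45 keratins, 25 had enough counts to be tested and 20 did not, the highest of the 20 being Krt4 at 0.321 FPKM in IBC 6. With edgeR, 0 of 25 keratins passed an adjusted p of 0.05, where 0.0192% of the 20855 genes tested passed (4 genes). At an unadjusted p under 0.05, 8 of 25 keratins were higher in TNBS (Krt7, Krt87, Krt90, Krt14, Krt6b, Krt6a, Krt13 and Krt36), where 10.4% of all genes were higher. At the same level 0 keratins were lower, where 1526 of the 20855 genes were lower. A keratin passes the count filter in part through the libraries where it is high, so these counts are a description of the 25. The median log2 fold change of these keratins was 0.32, with 19 above 0, against -0.01 for all genes tested. DESeq2 called 7 of the same 8, all but Krt6a, where it called 2.76% of all genes.

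Krt7, the type II keratin of ducts and glands, had 60.0, 36.9, 49.2, 22.6, 25.7 and 10.2 FPKM in TNBS 1 to 6, and 13.7, 14.9, 15.1, 13.2, 13.1 and 15.3 FPKM in vector 1 to 6. Of the 6 TNBS libraries, 5 lay above every vector library, while TNBS 6 lay below all of them. Krt7 had a log2 fold change of 1.26 ± 0.28 (SE; edgeR adjusted p = 0.0909), with 1.09 in the libraries high in Hoxb13 alone and 1.54 in those low in it. Without TNBS 6 it was 1.45 with an edgeR adjusted p of 0.00541, and with the Hoxb13 set as a term in the fit it was 1.24 with an adjusted p of 0.0407. These fits called 1.53% and 0.681% of all genes.

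The value per length of Krt7 rests on a length of 7774 bases implied by the table, where the longest coding transcript in GENCODE M21 has 4094 bases. With that transcript its levels would be 41.6 to 49.8 FPKM in IBC, 19.4 to 114 FPKM in TNBS and 24.9 to 29.1 FPKM in vector, which leaves its fold changes as they are. An antisense gene that overlaps it, Gm671, held 0.255% as many counts. Krt87, a hair-type keratin on the opposite strand, ends 725 bases from Krt7 and held 0.770% to 2.70% as many counts. Krt87 was 0.849 to 2.58 FPKM in TNBS and 0.399 to 0.934 FPKM in vector, and its log2 fold change was 1.31 ± 0.31 (SE; edgeR adjusted p = 0.0950), with 1.06 in the libraries high in Hoxb13 alone and 1.71 in those low in it. Whether Krt87 counts come from reads beyond the end of Krt7 was not tested.

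Krt14 had 59.3, 0.536, 8.33, 0.371, 3.49 and 0.423 FPKM in TNBS 1 to 6, and 1.69, 0.754, 0.393, 0.287, 0.418 and 0.539 FPKM in vector 1 to 6. TNBS 1, 3 and 5 lay above every vector library and the other 3 TNBS libraries lay among them. Krt14 had a log2 fold change of 4.06 ± 1.09 (SE; edgeR adjusted p = 0.124). It was 2.07 without TNBS 1, 4.14 in the libraries high in Hoxb13 alone and 3.63 in those low in it.

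Krt13 had 43.8, 0.0615, 0.240, 0.333, 6.51 and 0.632 FPKM in TNBS 1 to 6, and 0.656, 0.340, 0.0879, 0.117, 0.397 and 0.677 FPKM in vector 1 to 6. TNBS 1 and 5 lay above every vector library, and TNBS 2 lay below all of them. Krt13 had a log2 fold change of 4.41 ± 1.40 (SE; edgeR adjusted p = 0.172), and 2.28 without TNBS 1. It was 4.57 in the libraries high in Hoxb13 alone and 0.48 in those low in it, a difference that was not tested. Krt4, the type II partner of Krt13, was too low to test, with 39 counts in TNBS 1, 4 in TNBS 2 and 6 and 0 in the other TNBS libraries, against 8 in vector 6 and 0 in the other vector libraries.

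Krt90, a type II keratin, had 20.4, 0.0754, 0.134, 0.235, 11.3 and 0.171 FPKM in TNBS 1 to 6, and 0.0343, 0, 0, 0.150, 0.0812 and 0 FPKM in vector 1 to 6. TNBS 1 and 5 stood apart here as they did for Krt13, and the other TNBS libraries lay at or near the vector values. TNBS 1 and 5 are also the TNBS libraries high in Hoxd13, and the part of position in this was not tested. Krt90 had a log2 fold change of 6.90 ± 1.75 (SE; edgeR adjusted p = 0.111). It was 8.13 in the libraries high in Hoxb13 alone and 0.55 in those low in it, and this difference was not tested either. Without TNBS 1 it was 5.98, and without vector 4 it was 7.86. The vector group holds 6, 33 and 14 counts in vector 1, 4 and 5 and 0 elsewhere, so this fold depends on the prior count of the fit. Krt36, a type I keratin known from hair and tongue, was chosen after its values were seen. It had 18.4, 0.812, 6.51, 1.19, 7.48 and 0.659 FPKM in TNBS 1 to 6, and 1.62, 0.998, 0.0864, 0.392, 0.378 and 1.74 FPKM in vector 1 to 6. Its log2 fold change was 2.78 ± 0.91 (SE; edgeR adjusted p = 0.177), with 2.58 in the libraries high in Hoxb13 alone, 3.93 in those low in it and 2.12 without TNBS 1.

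Krt5, the basal partner of Krt14, had 0.0768, 0.0182, 0.0360, 0.0396, 0.125 and 0 FPKM in TNBS 1 to 6, and 0.0324, 0, 0, 0.0758, 0.121 and 0.0590 FPKM in vector 1 to 6. TNBS 1, which had the most Krt14 of the 18 libraries, had little Krt5, and the groups overlapped. The log2 fold change of Krt5 was 0.20 ± 0.97 (SE; edgeR adjusted p = 0.929), with 0.36 in the libraries high in Hoxb13 alone and -0.35 in those low in it.

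Krt6a and Krt6b, the type II keratins of wounded epidermis, were also chosen after their values were seen and share 40.2% and 44.5% of their 50-base windows, so their separate counts are uncertain. Krt6a was at most 0.784 FPKM in TNBS and 0.0354 FPKM in vector, with a log2 fold change of 4.32 ± 1.35 (SE; edgeR adjusted p = 0.171). For Krt6a it was 3.40 without TNBS 1 and 5.26 without vector 1, and 4.05 and 7.32 in the libraries high and low in Hoxb13. Krt6b was at most 0.535 FPKM in TNBS and 0.0517 FPKM in vector, with a log2 fold change of 3.74 ± 1.17 (SE; edgeR adjusted p = 0.171). For Krt6b it was 4.55 without vector 4, and 4.15 and 3.30 in the libraries high and low in Hoxb13. Both rest on 0 counts in 4 of the 6 vector libraries. Values of their type I partners overlapped between the groups. Krt17 was 0.999 to 17.9 FPKM in TNBS and 2.50 to 9.56 FPKM in vector, and Krt16 was at most 0.308 FPKM in TNBS and 0.572 FPKM in vector.

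**Figure D3:**
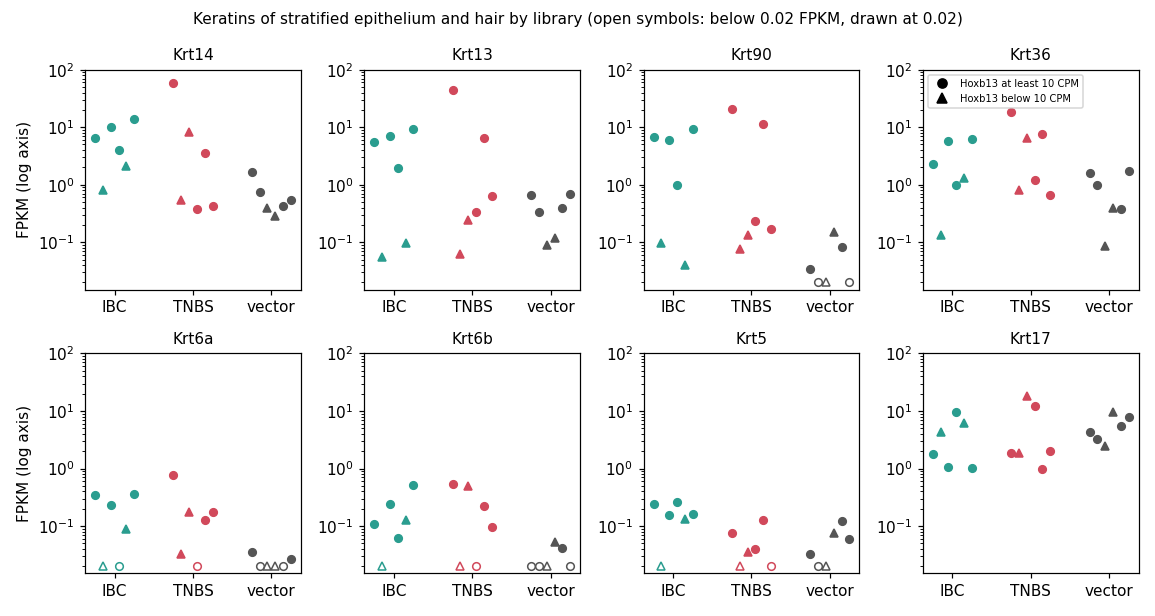
FPKM of Krt14, Krt13, Krt90, Krt36, Krt6a, Krt6b, Krt5 and Krt17 by library in IBC, TNBS and vector, on log axes. Circles are libraries high and triangles libraries low in Hoxb13, and open symbols are values below 0.02 drawn at 0.02. TNBS 1 is the highest library for Krt14, Krt13, Krt90, Krt36 and Krt6a, and no IBC or TNBS triangle reaches 1 FPKM for Krt13 or Krt90.

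Genes that accompany keratins were counted from other lists. Of 13 squamous epithelium genes other than keratins that could be tested, 0 passed the adjusted test and 6 were higher in TNBS at an unadjusted p under 0.05, where 10.4% of all genes were. Their median log2 fold change was 0.40, against -0.01 for all genes. Dsg3, the desmosomal cadherin of stratified epithelium, was 0.0234 to 0.230 FPKM in TNBS and 0.00751 to 0.0327 FPKM in vector (log2 fold change 2.56 ± 0.60, SE; edgeR adjusted p = 0.0939). Of 12 genes that anchor keratin filaments, 0 passed the adjusted test, 1 was higher and 1 lower at an unadjusted p under 0.05, and the median was -0.06. At that level 2177 of all 20855 genes were higher and 1526 lower. Of 8 smooth muscle markers, 1 fell, Synm, an intermediate filament protein of muscle (log2 fold change -1.72 ± 0.28, SE; edgeR adjusted p = 0.0471), where 0.0192% of all genes passed. None of the 8 had a fold change above 0, where 10205 of 20855 genes did. Whether tissue composition differed between the groups, and what part it had in the keratin values, was not tested.

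The comparison of IBC with vector shares the vector libraries with the one above. With edgeR, 0 of 25 keratins passed the adjusted threshold, where 0% of all genes passed. At an unadjusted p under 0.05, 7 keratins were higher in IBC (Krt90, Krt87, Krt14, Krt6a, Krt6b, Krt7 and Krt13), where 4.9% of all genes were higher. At the same level 0 keratins were lower, where 757 of 20855 genes were lower. The median log2 fold change of the keratins was 0.40, with 17 of 25 above 0, against -0.01 for all genes. DESeq2 called Krt90 alone (adjusted p = 0.00846), where it called 0.911% of all genes.

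Krt7 had 25.2, 25.9, 24.8, 21.9, 26.2 and 24.5 FPKM in IBC 1 to 6, against the 13.1 to 15.3 FPKM of the vector libraries given above. The IBC values lay within 21.9 to 26.2 FPKM, and every one of them was above every vector library. The mean was 24.8 ± 1.54 FPKM in IBC and 14.2 ± 0.983 FPKM in vector (SD, n = 6 each). The log2 fold change was 0.72 ± 0.28 (SE; edgeR adjusted p = 0.463), with 0.65 in the libraries high in Hoxb13 alone and 0.87 in those low in it. Of the 25 keratins, only Krt7 had groups that did not overlap in this direction, which held for 0.446% of all genes. Between TNBS and vector 0 keratins had higher groups without overlap, against 0.432% of all genes.

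Krt14 had 6.49, 0.824, 10.2, 4.07, 2.10 and 13.7 FPKM in IBC 1 to 6, against 0.287 to 1.69 FPKM in vector. Of the 6 IBC libraries, 5 lay above every vector library and IBC 2 lay below vector 1. For Krt14 the log2 fold change was 3.05 ± 1.05 (SE; edgeR adjusted p = 0.389), with 3.22 in the libraries high in Hoxb13 alone and 2.11 in those low in it.

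Krt13 had 5.57, 0.0553, 6.94, 1.99, 0.0967 and 9.35 FPKM in IBC 1 to 6, against 0.0879 to 0.677 FPKM in vector. IBC 1, 3, 4 and 6 lay above every vector library, and IBC 2 and 5, the libraries low in Hoxb13, did not. For Krt13 the log2 fold change was 3.22 ± 1.34 (SE; edgeR adjusted p = 0.511), with 3.39 in the libraries high in Hoxb13 alone and -0.43 in those low in it. Krt4 had 15, 37, 16 and 50 counts in the same 4 libraries, 0 in IBC 2 and 4 in IBC 5.

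Krt90 had 6.73, 0.0979, 5.99, 0.975, 0.0398 and 9.17 FPKM in IBC 1 to 6, against 0 to 0.150 FPKM in vector. The libraries high in Krt13 were again high in Krt90. Of these, IBC 3 and 6 were high in Hoxd13 and IBC 1 and 4 were not. For Krt90 the log2 fold change was 6.20 ± 1.70 (SE; edgeR adjusted p = 0.283), with 7.46 in the libraries high in Hoxb13 alone and -0.04 in those low in it. Krt36 was 0.131 to 6.33 FPKM in IBC and 0.0864 to 1.74 FPKM in vector, with a log2 fold change of 1.58 ± 0.87 (SE; edgeR adjusted p = 0.679) and 1.58 and 1.71 in the libraries high and low in Hoxb13. Without vector 4 the value of Krt90 was 7.17.

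Krt6a was 0 to 0.360 FPKM in IBC, with a log2 fold change of 3.88 ± 1.34 (SE; edgeR adjusted p = 0.389), and Krt6b was 0.0188 to 0.524 FPKM, with 3.28 ± 1.15 (SE; edgeR adjusted p = 0.397). In the libraries high and low in Hoxb13 the values were 3.75 and 6.21 for Krt6a, and 4.16 and 1.63 for Krt6b. Without vector 1 that of Krt6a was 4.83, and without vector 4 that of Krt6b was 4.10. Krt87 was 0.827 to 1.82 FPKM in IBC and its log2 fold change 0.97 ± 0.31 (SE; edgeR adjusted p = 0.340), with 0.90 and 1.15 in the high and low sets. Krt5 had 0.245, 0, 0.157, 0.260, 0.130 and 0.160 FPKM in IBC 1 to 6, so 5 of 6 libraries lay above all vector values, at a level far below that of Krt14. Its log2 fold change was 1.59 ± 0.96 (SE; edgeR adjusted p = 0.707), with 1.80 and 0.90 in the high and low sets. Dsg3 was 0.0298 to 0.262 FPKM in IBC, with a log2 fold change of 2.52 ± 0.60 (SE; edgeR adjusted p = 0.213), and of the 13 squamous genes other than keratins 1 was higher at an unadjusted p under 0.05, where 4.9% of all genes were, with a median of 0.15.

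The comparison of IBC with TNBS asks whether the compound goes with a different level, and it shares its libraries with both comparisons above. With edgeR, 0 of 25 keratins passed, where 0% of all genes passed. At an unadjusted p under 0.05, 0 keratins were higher in IBC, where 356 of 20855 genes were higher. At the same level 1 was lower in IBC, Krt18, where 2.22% of all genes were lower. DESeq2 called 0 keratins as well. The median log2 fold change of the 25 keratins was -0.24, with 7 above 0, against 0.00 for all genes.

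Krt7 averaged 24.8 ± 1.54 FPKM in IBC and 34.1 ± 18.4 FPKM in TNBS (SD, n = 6 each). The IBC libraries lay inside the TNBS range of 10.2 to 60.0 FPKM, and 0 of 6 were above the TNBS median of 31.3 FPKM. The log2 fold change was -0.54 ± 0.27 (SE; edgeR adjusted p = 0.925), with -0.44 and -0.67 in the libraries high and low in Hoxb13. It stayed between -0.73 and -0.25 under all 31 settings tried, always below 0.

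Krt14, Krt13 and Krt90 had wide and overlapping ranges in both groups. The log2 fold change of IBC against TNBS was -1.01 ± 0.97 for Krt14, -1.20 ± 1.23 for Krt13 and -0.69 ± 1.31 for Krt90 (SE; edgeR adjusted p = 0.925, 0.926 and 0.968). Without TNBS 1 these values were 0.97, 0.94 and 0.23, so their sign rests on that library. In the libraries high in Hoxb13 alone they were -0.92, -1.18 and -0.67, and in those low in it -1.52, -0.91 and -0.59. In CPM, 4 of 6 IBC libraries lay above the TNBS median for each of the 3 genes. In FPKM, IBC 5 also lay above it for Krt14, at 2.10 against 2.01 FPKM. Krt5 had a log2 fold change of 1.40 ± 0.95 (SE; edgeR adjusted p = 0.925), with 1.44 and 1.25 in the high and low sets.

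**Figure D4:**
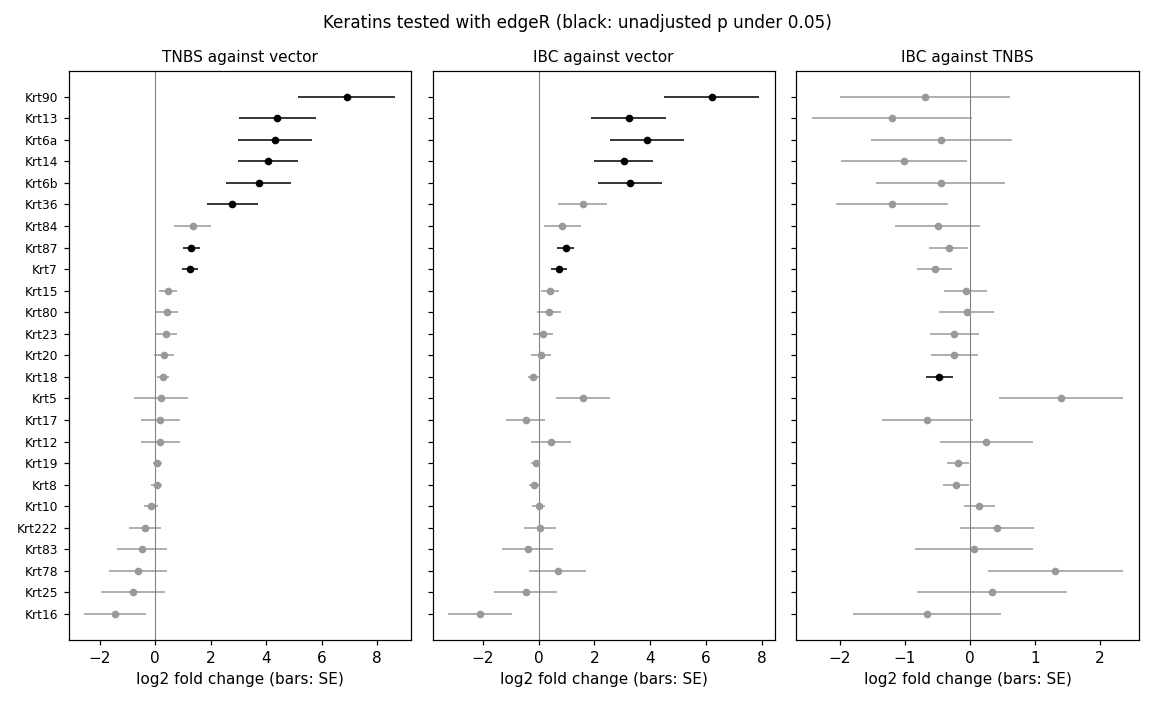
Log2 fold changes of the 25 keratins tested, with their standard errors, for TNBS against vector, IBC against vector and IBC against TNBS (edgeR, all 18 libraries). Black marks an unadjusted p under 0.05, and 0 keratins passed the adjusted threshold in any panel. The 8 and 7 black points of the panels against vector lie to the right of 0, and the only black point between IBC and TNBS, Krt18, lies to the left.

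Keratin levels were also set against Hoxb13 across groups, as a description with no test, since the Hoxb13 sets were read from the data. Krt13 was at least 0.333 FPKM in all 12 libraries high in Hoxb13 and at most 0.240 FPKM in all 6 low in it. Krt90 was at most 0.150 FPKM in the 6, and 0 to 20.4 FPKM with a median of 0.605 FPKM in the 12. Krt20 ran the other way, with 242 to 538 FPKM (median 413) in the 6 and 137 to 472 FPKM (median 217) in the 12.

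Krt12, known as the type I keratin of the cornea, was 0.452 to 1.31 FPKM (median 0.685) in the 6 and 0.0906 to 0.487 FPKM (median 0.147) in the 12. An antisense gene that overlaps Krt12, A830036E02Rik, held 75.1% as many counts, so reads of the pair cannot be told apart unless counting used strand. Krt14 differed less sharply, with 0.287 to 8.33 FPKM (median 0.680) in the 6 and 0.371 to 59.3 FPKM (median 2.59) in the 12. Krt7 was similar in both sets, with 13.2 to 49.2 FPKM (median 26.1) in the 6 and 10.2 to 60.0 FPKM (median 22.2) in the 12.

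Libraries with Krt14, Krt13 or Krt90 at 1 FPKM or more were counted as well, without a test. Krt14 reached that level in 5 of 6 IBC, 3 of 6 TNBS and 1 of 6 vector libraries, and Krt13 in 4, 2 and 0 of 6. Krt90 reached it in 3, 2 and 0 of 6. All 6 libraries with Krt13 at 1 FPKM or more, and all 5 with Krt90, were high in Hoxb13, as were 7 of the 9 with Krt14. Among vector libraries high in Hoxb13, the highest Krt13 was 0.677 FPKM and the highest Krt90 0.0812 FPKM.

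**Figure D5:**
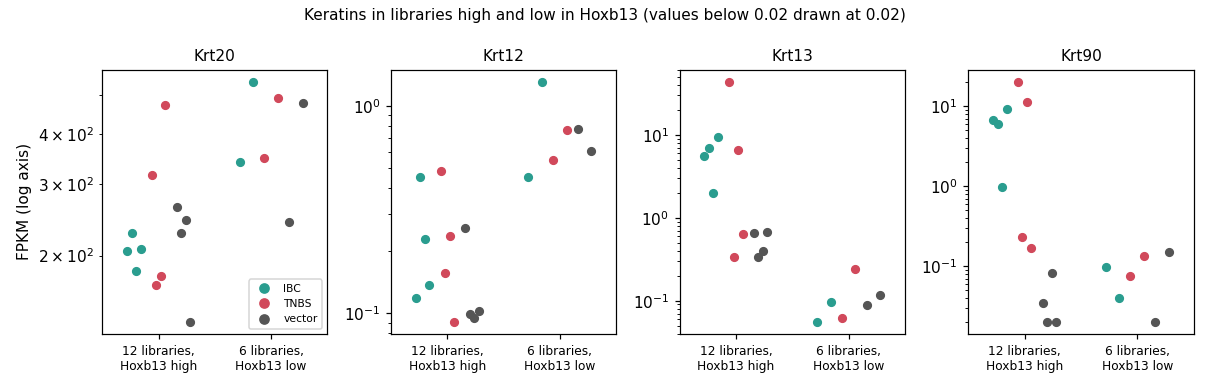
FPKM of Krt20, Krt12, Krt13 and Krt90 on log axes in the 12 libraries high and the 6 low in Hoxb13, coloured by group, with values below 0.02 drawn at 0.02. Krt20 and Krt12 lie higher in the 6, while Krt13 lies lower in each of the 6 than in any of the 12.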

How the data were processed

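Polyadenylated RNA of mouse colon was sequenced in 18 libraries in 3 labelled groups of 6. Reads were trimmed with cutadapt 1.9, per the submitters' processing notes. Not given in the sources used here are aligner, counting program, use of strand and genome build. Whole-number counts per gene and library were deposited, per the file headers. Within a gene the deposited FPKM values follow those counts, scaled by library total, but not in exact proportion. Low counts are often multiples of 4, so a sequenced fragment can be worth more than 1 count, and no upper limit is given for counts of 0. The number of value columns left unused is 0.

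The low-count filter was filterByExpr (edgeR 4.0.16), totals were scaled by TMM, and a single fit of all 18 libraries gave two-sided quasi-likelihood tests, with Benjamini-Hochberg adjustment over all 20855 genes tested per comparison. The threshold was 0.05, and the script was tested on simulated data. CPM use the scaled totals. SE is the size of the log2 fold change divided by the square root of the F statistic of its quasi-likelihood test, an approximation. Other tools were DESeq2 1.42.0, limma 3.58.1, the data.table package (1.17.8) and R 4.3.3, and Python 3.11.15 with pandas 2.3.3, numpy 2.4.6 and matplotlib 3.10.9. Libraries were split by Hoxb13 at 10 CPM. Alternatives changed the filter, tool, scaling, samples, unit and pseudocount, left out each library, or added the Hoxb13 set or replicate number. The number of counts of a library limits the precision of its low values.

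The members and gene lists were chosen with earlier results of these data known. Tests are printed for Krt8, Krt18, Krt19, Krt20, Krt7, Krt5, Krt14, Krt4 and Krt13 where they passed the filter, for called keratins and for the keratin with the smallest p in each comparison (Krt7, Krt18 and Krt90). Krt36, Krt6a, Krt6b and Krt87 were chosen after their values were seen. No library was a duplicate of another of its group among 45 pairs. Positions of start-site windows are those of RefSeq on GRCm38.p6.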

Additional observations from a re-analysis of the deposited data

Results flagged for a closer look

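Among groups of 6 libraries, 39 were examined for 13 keratins, and in 5 of them the highest library stood apart by more than Dixon's 95% limit. Chance alone gives about 1 in 20 such groups, and the genes of a library are not independent.

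Krt14 was 59.3 FPKM in TNBS 1, where the next TNBS library had 8.33 FPKM. Krt13 was 43.8 FPKM in TNBS 1, where the next had 6.51 FPKM. Krt6a was 0.784 FPKM in TNBS 1, where the next had 0.178 FPKM. Krt14 was 1.69 FPKM in vector 1, where the next vector library had 0.754 FPKM. Krt20 was 476 FPKM in vector 4, a library low in Hoxb13, where the next had 263 FPKM.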

How the results depend on the processing

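The count of keratins called was 0 in each comparison and stayed 0 for IBC against TNBS under all settings tried. For TNBS against vector it was 7 with DESeq2, 1 with the Hoxb13 set as a term (Krt7), and 0 to 4 when single libraries were left out, the 4 without TNBS 6 being Krt7, Krt14, Krt90 and Krt87 (edgeR adjusted p = 0.00541, 0.0463, 0.0464 and 0.0319). For IBC against vector it was 1 with DESeq2 (Krt90). The cause was not tested. Over 35 fold changes of named keratins and their alternatives, 1023 values kept their sign and side of the threshold, 13 newly passed it and 30 changed sign.

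For TNBS against vector, the log2 fold change turned to -0.04 for Krt8 in the libraries high in Hoxb13 alone and to -0.35 for Krt5 in those low in it, and Krt5 ranged from -0.40 to 0.72 when single libraries were left out. In the libraries low in Hoxb13 alone, with 2 libraries a group, values for IBC against TNBS turned to 0.13 for Krt8, 0.23 for Krt19 and 0.13 for Krt20, and for IBC against vector to 0.44 for Krt8, 0.41 for Krt18, 0.43 for Krt19, -0.43 for Krt13 and -0.04 for Krt90. For IBC against TNBS, limma on log2(FPKM + 1) gave 0.37, 0.16 and 0.24 for Krt14, Krt13 and Krt90, and with a pseudocount of 0.1 it gave 0.80, 0.38 and 0.62. Leaving out single libraries gave -1.36 to 0.97 for Krt14, -1.61 to 0.94 for Krt13 and -1.14 to 0.23 for Krt90, the highest without TNBS 1. Krt20 for IBC against vector was -0.01 with the Hoxb13 term, -0.19 in the libraries high in Hoxb13 alone and -0.29 to 0.31 when single libraries were left out (lowest without IBC 5).

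The labels number the libraries of each group, but only 7 of 18 same-numbered pairs had deviations correlated above 0.1 (median -0.0208), so the numbers were not taken as pairs. With the replicate number as a block, 0 keratins were called in each comparison. The replicate block turned IBC against TNBS to 0.47 for Krt14, 0.66 for Krt13 and 1.00 for Krt90, and IBC against vector to -0.01 for Krt20.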

Other observations

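Keratins of the hair follicle sheath and most of the hair shaft were near 0 in these libraries. The 6 sheath keratins reached at most 0.144 FPKM (Krt27 in IBC 3), and 7 of the 11 hair shaft keratins were too low to test. Among 6 genes of hair and skin glands that could be tested, 0 passed edgeR's adjusted test and 0 did so at an unadjusted p under 0.05 for TNBS against vector, IBC against TNBS or IBC against vector. In that order 2177, 356 and 1021 of all 20855 genes were higher at the unadjusted level, and 1526, 464 and 757 lower. Krt84, a hair-type keratin, was 0.197 to 1.03 FPKM in IBC, 0.0967 to 1.79 FPKM in TNBS and 0.0964 to 1.00 FPKM in vector.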
